A study of Mus musculus with 2 samples.

Results

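The 10 genes that part mature oligodendrocytes into subtypes, Klk6, Hapln2, Anln, Enpp6, Serpinb1a, Gjb1, S100b, Apod, Il33 and Ptgds, were followed through single hippocampal cells of mice with and without Mr1. They were taken by gene symbol, 10 of the 31053 genes in the tables, and had been proposed from patterns in these same libraries, so the patterns among them are given as descriptions. The study asked which transcripts differ, cell type by cell type, between hippocampi of the 2 genotypes. There was 1 library from Mr1-/- mice, which lack the MHC class I-related molecule Mr1, and 1 library from Mr1+/+ mice. All mice were 7 months old and untreated, and the number of animals pooled is not stated. Hippocampi were dissociated with a kit made for primary neurons, and live nucleated cells (DAPI-, Draq5+) were sorted and run on a droplet kit that reads the 5' end of transcripts and counts molecules by unique molecular identifiers (UMIs).

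Oligodendrocytes wrap axons in myelin and, once mature, are not uniform. Cells that carry the secreted protease Klk6 are commonly told apart from cells rich in Ptgds, the lipocalin-type prostaglandin D2 synthase, or in the alarmin Il33, a nuclear cytokine released on cell damage. Hapln2 links hyaluronan to proteoglycans at nodes of Ranvier, Anln encodes anillin, which assembles septin filaments in myelin, and Gjb1 encodes the gap junction protein connexin 32. Enpp6 is a choline-specific phosphodiesterase known as a mark of newly forming oligodendrocytes, Serpinb1a is an inhibitor of neutrophil-type serine proteases, S100b is a calcium-binding protein and Apod is a lipid-carrying lipocalin.

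The stretches upstream of 3 of the genes are shown because these genes lie at opposite ends of the pattern described here: Klk6 and S100b had the highest ratios between 1 group of oligodendrocytes and the rest, and Il33 the lowest apart from Ptgds, whose window lies inside its annotated gene. They are RefSeq windows of build GRCm38.p6 on the + strand, trimmed to end before the GENCODE gene start: chr7:43824294-43824498 for Klk6, chr10:76253586-76253835 for S100b and chr19:29924863-29925112 for Il33. Capitals mark ACAAAG (a core read by SOX factors) in Klk6 and TATAAA in Il33.
Klk6: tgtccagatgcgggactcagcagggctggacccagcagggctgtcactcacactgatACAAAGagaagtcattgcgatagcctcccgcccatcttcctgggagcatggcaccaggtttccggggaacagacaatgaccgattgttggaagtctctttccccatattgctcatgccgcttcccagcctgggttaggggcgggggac
S100b: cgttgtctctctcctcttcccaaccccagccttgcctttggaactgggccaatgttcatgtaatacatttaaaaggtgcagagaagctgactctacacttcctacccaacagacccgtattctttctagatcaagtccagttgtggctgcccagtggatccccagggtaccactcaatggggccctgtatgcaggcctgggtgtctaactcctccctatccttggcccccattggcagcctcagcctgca
Il33: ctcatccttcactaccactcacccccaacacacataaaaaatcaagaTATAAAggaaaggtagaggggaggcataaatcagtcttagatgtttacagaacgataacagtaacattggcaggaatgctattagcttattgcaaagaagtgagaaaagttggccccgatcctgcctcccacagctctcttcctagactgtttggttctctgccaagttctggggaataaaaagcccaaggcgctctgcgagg
Over all 9 members with a window of 250 bases, both strands were searched for the SOX core, the TATA letters shown and the palindrome CAGCTG, an E-box. The SOX core stood at -193 from the RefSeq start of Klk6, at -176 in Gjb1 and at -84 in Apod. The E-box stood at -115 in Hapln2 and at -154 and -117 in Ptgds, and the TATA letters at -203 in Il33. Of 32851 such windows, 16.5% held the SOX core, 13% the E-box and 12.4% the TATA letters, so none of these runs is rare.

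The genes lie on separate chromosomes (mm10, GENCODE M21), among them Klk6 at chr7:43824499-43832030, Il33 at chr19:29925114-29960718 and Ptgds at chr2:25466709-25470046. S100b (chr10:76253853-76261159) overlaps Dip2a on the opposite strand, and Enpp6 (chr8:46986887-47096762) overlaps 2 antisense transcripts. Whether counting used strand is not stated, so reads of these 2 genes could include those of their partners. Anln (chr9:22332012-22389188) overlaps Gm48646, an intronic transcript on its own strand, which counting by strand would not separate.

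The tables held 5347 Mr1-/- and 6410 Mr1+/+ barcodes with 18349132 and 23244575 UMIs, and 44 barcodes occurred in both. Mr1 itself had 2 UMIs in Mr1-/- cells, against 130 in Mr1+/+ cells. Oligodendrocyte-like cells numbered 957 and 1436, with median UMI counts of 4181 and 4354. All 8 oligodendrocyte markers were detected there, the least frequent in 90.1% and 86.8% of cells. Astrocyte markers summed to 109.9 and 127.5 CPM (UMIs scaled to a class total of 1000000), with 1 of 6 at 0 in the Mr1-/- library, and endothelial markers to 36.1 and 16.8 CPM. With 1 library per genotype no difference has a replicate check, and genotype cannot be told apart from differences between mice, dissections, sorts and libraries. All intervals are 95% and cover counting error only.

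Klk6, Hapln2, Anln and Gjb1 were all but confined to oligodendrocyte-like cells among the named classes. These cells held 99.1% and 99.2% of Klk6 UMIs in the Mr1-/- and Mr1+/+ libraries, and 99.7% and 99.1% of Gjb1 UMIs. Enpp6 was higher per UMI in oligodendrocyte precursor-like cells, at 326.6 and 404 CPM, than in oligodendrocyte-like cells, at 79.3 and 72.2 CPM. Those precursor UMIs came from 5 of 33 Mr1-/- cells and 6 of 42 Mr1+/+ cells, and 1 cell of each library held 24 and 29 of them. In a split made after the values were seen, all 48 and 84 Enpp6 UMIs lay in the 5 and 11 precursor-like cells with no UMI of Pdgfra, the growth factor receptor of precursors.

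S100b was the least restricted of the 10, and oligodendrocyte-like cells held 48.3% and 49.1% of its UMIs. Its level was 1130 and 1231 CPM in precursor-like cells, 501 and 406 CPM in ependymal-like cells, 439 and 366 CPM in astrocyte-like cells and 245.5 and 243 CPM in oligodendrocyte-like cells. Serpinb1a came next to oligodendrocytes in ependymal-like cells, at 169 and 149.9 CPM.

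The secreted lipocalins Apod and Ptgds were highest in fibroblast-like cells, which numbered 32 and 29. Apod reached 6755 and 4599 CPM there, against 2014 and 1952 CPM in oligodendrocyte-like cells. Ptgds reached 81444 and 35765 CPM in fibroblast-like cells, but 5 cells held 77.2% and 83.1% of those UMIs and the median cell had 39 and 2. Il33 stood at 1453 and 1499 CPM in oligodendrocyte-like cells, 262 and 253 CPM in fibroblast-like cells and 173 and 171 CPM in astrocyte-like cells. It was found in 37.1% of astrocyte-like cells in both libraries, against 0.669% and 0.766% of microglia-like cells, a class expected to lack it. Median UMI counts were 2994 and 3120.5 in the astrocyte-like cells, and 3812 and 4245 in the microglia-like cells. In droplet data free RNA adds UMIs of abundant genes to other cells. Ptgds had 56 and 80 UMIs in the 1558 and 1434 endothelial-like cells, below the 380 and 447 UMIs that oligodendrocyte RNA scaled by Mbp, a major myelin protein gene, would bring. These counts are read as background.

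**Figure D1:**
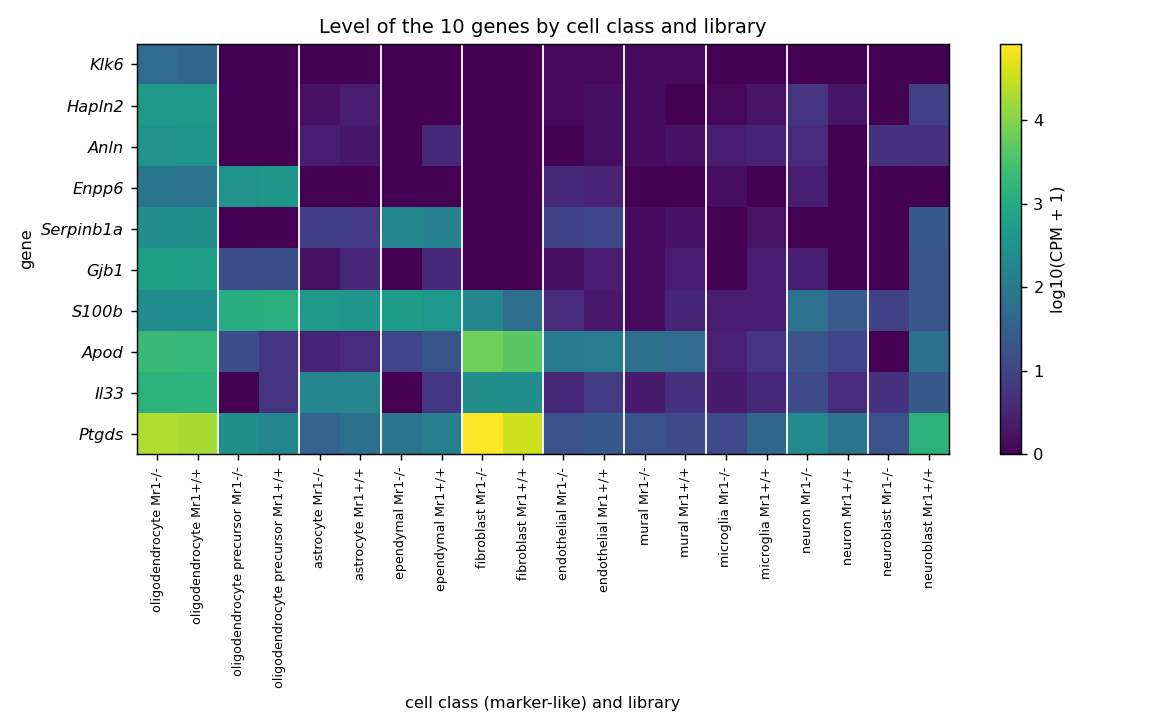
Level of each gene, as log10(CPM + 1), in 10 marker-named cell classes, with the Mr1-/- library left of the Mr1+/+ library in each class. Klk6, Hapln2, Anln and Gjb1 stand out in oligodendrocyte-like cells, S100b is spread over glial classes, and Ptgds is brightest in fibroblast-like cells.

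Within oligodendrocytes the 10 genes ranged from near universal to rare. Ptgds had a median of 71 UMIs per Mr1-/- cell, against 55 per Mr1+/+ cell, while Apod and Il33 had a median of 6 in both. At least 1 UMI of Klk6 was found in 68 Mr1-/- cells (7.11%, 5.56 to 8.92) and 91 Mr1+/+ cells (6.34%, 5.13 to 7.72). These were deep cells: ranked by UMIs into 4 equal bins, the deepest bin had a Klk6 UMI in 22.6% and 21.5% of cells, against 0.417% and 1.39% in the shallowest. After each cell was thinned to 1500 UMIs, leaving out 14 and 143 shallower cells, the shares were 2.86% and 3.02%.

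Cells were then sub-clustered without the 10 genes, and the sub-cluster that held most Klk6 UMIs was set against the other oligodendrocyte-like cells. It held 174 Mr1-/- cells (18.2% of the class) and 287 Mr1+/+ cells (19.99%), and Hopx, Nkx2-9, Slc25a27 and Selenop led its other genes. Its median UMI counts were 5374 and 5955, above those of the class. It held 89.4% and 95.3% of Klk6 UMIs. Of the other sub-clusters, 1 (216 and 300 cells) was led by the astrocyte genes Slc1a2 and Aldoc, and 1 (56 and 211 cells) was shallow. The sub-cluster was picked by Klk6, and the other genes that formed it vary with the members, so these are descriptions with no test.

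Klk6 stood at 200.1 CPM inside and 7.14 CPM outside it in the Mr1-/- library, a ratio of 28.0 (18.1 to 45.3). In the Mr1+/+ library it stood at 137 CPM inside and 2.67 CPM outside, a ratio of 51.5 (28.9 to 101). S100b followed at 822 against 72.9 CPM in Mr1-/- cells and 707 against 61.4 CPM in Mr1+/+ cells, ratios of 11.3 and 11.5. The phosphodiesterase Enpp6 had ratios of 7.22 and 8.43.

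The more widespread structural genes differed less. The ratio inside over outside was 2.94 and 2.61 for Anln, 1.80 and 1.78 for Hapln2 and 1.63 and 1.72 for Gjb1, and it was 1.69 and 1.99 for Serpinb1a and 2.02 and 1.84 for Apod. Il33 and Ptgds lay on the other side. Il33 stood at 988 against 1593 CPM in Mr1-/- cells and at 1010 against 1691 CPM in Mr1+/+ cells, ratios of 0.620 and 0.597. Ptgds stood at 4368 against 26766 CPM and at 5502 against 23331 CPM, ratios of 0.163 and 0.236. Of all 3057 genes compared, 6.87% were higher inside in both libraries by a log2 ratio of over 0.32, and 3.76% were lower by as much.

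**Figure D2:**
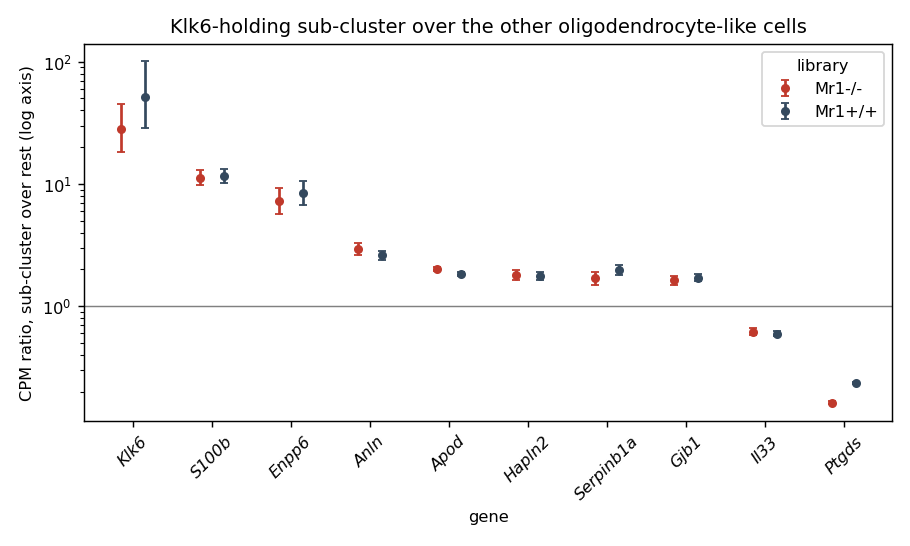
CPM ratio of the Klk6-holding sub-cluster over all other oligodendrocyte-like cells, on a log axis, for the Mr1-/- library (left point of each pair) and the Mr1+/+ library, with 95% counting intervals. The ratio was above 1 for 8 genes and below 1 for Il33 and Ptgds in both libraries.

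Other oligodendrocyte genes also differed between the sub-cluster and the rest. Only the members were left out of the sub-clustering, so these genes could help form it. Their ratios are descriptions with no test. Of 11 compared genes in a list of 15 others used to tell mature oligodendrocytes apart, 5 were higher inside the sub-cluster in both libraries by that measure and 2 were lower. Hopx, a homeodomain protein that does not bind DNA, had ratios of 13.7 and 14.7, Anxa5, a phospholipid-binding annexin, 3.09 and 2.89, and Selenop, a selenium carrier, 3.31 and 3.27. The tetraspanin Cd9 had ratios of 0.307 and 0.340. Among 12 genes of compact myelin and its paranodal partners 0 were higher and 3 were lower, with Opalin, a transmembrane protein of myelin, at 0.381 and 0.478.

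Relatives and partners of the members were mostly near 0 in these cells. No UMI was found for Il1rl1, the receptor of Il33, or for the prostaglandin D2 receptors Ptgdr and Ptgdr2. Klk8, Klk9 and Klk10 had at most 1 UMI per library.

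In thinned single cells the Pearson correlation of log(UMIs + 1) was positive in both libraries for 29 of 45 pairs and negative in both for 16. All 28 pairs among Klk6, Hapln2, Anln, Enpp6, Serpinb1a, Gjb1, S100b and Apod were positive, as was Il33 with Ptgds, and all 16 pairs between these groups were negative. Many values were small, and 21 pairs exceeded 0.1 in both libraries while 12 lay under -0.1. The strongest were S100b with Ptgds, at -0.544 in Mr1-/- cells and -0.545 in Mr1+/+ cells. Il33 with Ptgds reached 0.241 and 0.232. Cells of 1 library share their preparation and are not replicates, and no p-value is given.

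The correlations were smaller among cells outside the sub-cluster. There, over 770 and 1009 thinned cells, 23 of the 28 pairs were positive in both libraries and 15 of the 16 negative, but 1 pair exceeded 0.1 in both and 3 lay under -0.1. Inside it, among 173 and 284 cells, 19 of the 28 pairs were positive in both libraries, 14 of the 16 were negative, and 8 of all 45 pairs had opposite signs in the 2 libraries. S100b with Ptgds stood at -0.490 and -0.501 there.

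**Figure D3:**
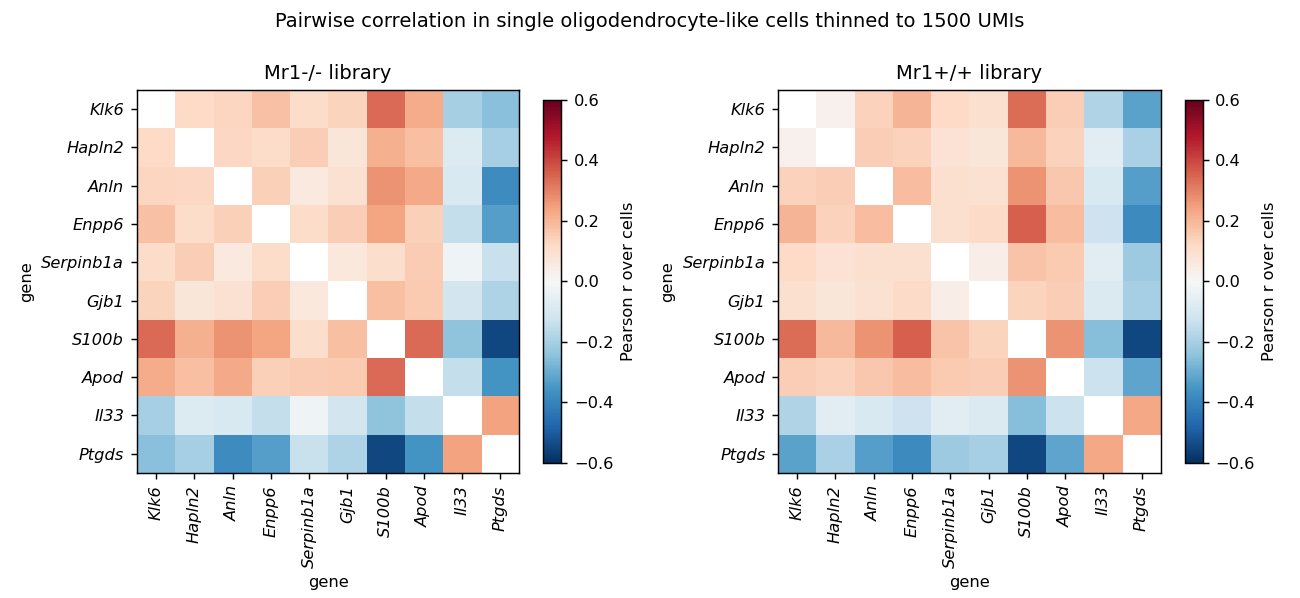
Pearson correlation of log(UMIs + 1) between each pair of genes over oligodendrocyte-like cells thinned to 1500 UMIs, for the Mr1-/- library (left, 943 cells) and the Mr1+/+ library (right, 1293 cells). Il33 and Ptgds were negative with each of the other 8 genes and positive with each other.

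Co-detection gives the same comparison in counts of cells, set against the number that the product of the 2 shares gives. Klk6 and Il33 were both seen in 13 Mr1-/- cells against 22.9 by the product, and in 19 Mr1+/+ cells against 32.8, ratios of 0.568 and 0.580. As deposited, where nearly every cell has Il33, they met in 56 cells against 65.5 and in 80 cells against 86.2, so the size of this ratio depends on depth. Klk6 and S100b met in 23 cells against 4.21 and in 27 cells against 6.52. Of cells with a Klk6 UMI, 85.2% and 69.2% also had S100b, against 13.5% and 15.1% of cells without. The 27 Mr1-/- and 39 Mr1+/+ thinned cells with Klk6 had 0.266 and 0.347 times the Il33 level of cells without it, and 0.229 and 0.101 times the Ptgds level. Mbp stood at 0.976 and 0.95 times. Before thinning, the cells with Klk6 had median UMI counts of 6615 and 6379, against 4176 and 4504 in those without.

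Cells can also be ordered by how many of Klk6, S100b and Enpp6 they carry, here as deposited. All 3 were found in 46 Mr1-/- cells (4.81%) and 65 Mr1+/+ cells (4.53%), and none of them in 633 and 977 cells, whose median UMI counts were 3903 and 4005, against 6374 and 6541 in the cells with all 3. Ptgds stood at 4541 and 1613 CPM in the cells with all 3, and at 28189 and 23783 CPM in the cells with none. Il33 stood at 555 and 649 CPM in the cells with all 3, and at 1642 and 1702 CPM in the cells with none.

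Ranking thinned cells by Ptgds into 4 equal bins showed where along its range the other genes lay. From the lowest to the highest bin, S100b stood at 590 CPM, 81.9 CPM, 76.3 CPM and 22.7 CPM in Mr1-/- cells. In Mr1+/+ cells the same bins held 654 CPM, 92.9 CPM, 39.2 CPM and 41.3 CPM. The lowest bin stood apart from the others for S100b. Klk6 had 30, 11, 1 and 1 UMIs by bin in Mr1-/- cells and 56, 4, 1 and 0 in Mr1+/+ cells. Il33 was lowest in the lowest bin, at 1155 and 1152 CPM, and lay between 1594 and 1751 CPM in the other Mr1-/- bins and between 1612 and 1715 CPM in the other Mr1+/+ bins.

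**Figure D4:**
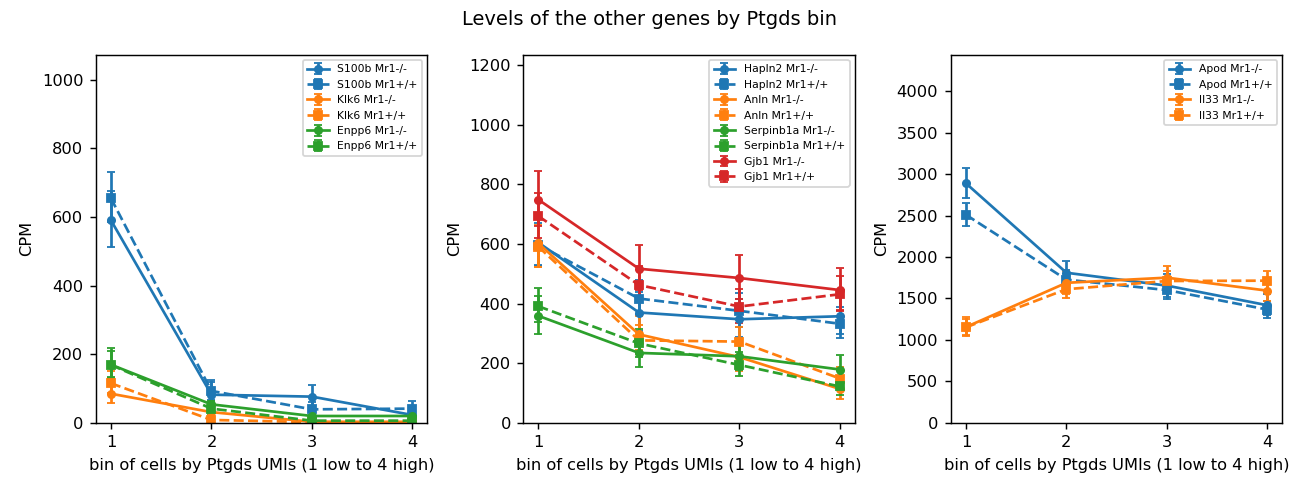
CPM of 9 genes in 4 equal bins of thinned oligodendrocyte-like cells ranked by Ptgds UMIs from low to high, with 95% counting intervals; solid lines with circles are the Mr1-/- library and dashed lines with squares the Mr1+/+ library. S100b, Klk6 and Enpp6 are concentrated in the lowest bin, where Il33 is lowest.

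By a rule that took the 8 genes most correlated over cells as deposited (957 and 1436 cells, 4811 genes compared), Hopx was most like Klk6, with r of 0.379 and 0.397, followed by Selenop and Slc25a27. Opalin was most like Il33, at 0.337 and 0.296, followed by Cd9 and Gstp1. Over the 20 class-by-library levels, Tnni1 was most like Klk6 (r = 0.997) and Aspa, an enzyme that breaks down N-acetylaspartate, most like Il33 (0.890). Klk6 was at most 0.41 CPM in any other class. Its r therefore mainly sets oligodendrocyte-like cells against the rest and does not describe likeness among oligodendrocytes.

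Between the genotypes, the ratios of the members in oligodendrocyte-like cells were set beside those of all genes compared. A log2 ratio beyond 0.32 either way was found for 0 of the 9 members that had a mean of at least 50 CPM, against 3.17% of 3057 genes (0.851% higher and 2.32% lower in Mr1-/- cells). Klk6 fell below that level. A count over so few members cannot be told apart from the share over all genes. Ptgds, at a log2 ratio of 0.24, lay above the 95th percentile of all genes compared (0.19). The other compared members lay between the 5th percentile (-0.25) and the 95th. Klk6 had 216 UMIs (51.6 CPM) in Mr1-/- cells and 254 UMIs (40.6 CPM) in Mr1+/+ cells, a ratio of 1.27 (1.06 to 1.53). The share of cells with Klk6 as deposited differed by 0.77 points (-1.24 to 2.91). In thinned cells the log2 ratio of Klk6 was -0.05 and the share differed by -0.153 points (-1.55 to 1.35). The 5 cells richest in Klk6 held 34.7% of its UMIs among Mr1-/- cells, against 21.7% among Mr1+/+ cells.

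Ptgds stood at 21606 CPM in Mr1-/- and 18312 CPM in Mr1+/+ oligodendrocyte-like cells, a ratio of 1.18 (1.17 to 1.19). Inside the Klk6-holding sub-cluster the ratio of Ptgds was 0.794 (0.766 to 0.823), against 1.13 and 1.19 in the 2 largest other sub-clusters. Gjb1 stood at 605 and 537 CPM, a ratio of 1.13 (1.07 to 1.19), and lay above 1 in each of 4 sub-clusters, between 1.12 and 1.38. The share of thinned cells with Gjb1 was 52.9% and 48.6%, a difference of 4.27 points (0.074 to 8.44). Serpinb1a had a ratio of 0.919 (0.851 to 0.992), a log2 ratio of -0.12, which turned to 0.03 in thinned cells. Over the whole class the intervals of Hapln2, Anln, Enpp6, S100b and Il33 held 1. Apod had 1.032 (1.003 to 1.061).

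Within sub-clusters the genotype ratios of some genes departed from those of the class. Klk6 had a ratio of 1.46 (1.20 to 1.77) in the Klk6-holding sub-cluster, and of 3.91 (1.57 to 10.997) in the one led by astrocyte genes, where it rested on 19 and 7 UMIs. S100b had 1.16 (1.06 to 1.27) and 1.56 (1.26 to 1.93) in these 2 sub-clusters, but 0.674 (0.447 to 1.002) in the largest one, on 39 and 78 UMIs. Il33 had 0.887 (0.831 to 0.945) in the sub-cluster led by astrocyte genes, and Enpp6 1.52 (1.006 to 2.30) in the largest, on 53 and 47 UMIs. The differences between sub-clusters were not tested. S100b and Il33 were also found in astrocyte-like cells, and their part in the values of the sub-cluster led by astrocyte genes was not tested.

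Of the 41 listed relatives and subtype genes compared, 1 (2.44%) passed that size between genotypes, a share near the 3.17% over all genes. It was Sgk1, a glucocorticoid-responsive kinase, at 903 CPM in Mr1-/- and 2172 CPM in Mr1+/+ oligodendrocyte-like cells, a ratio of 0.416 (0.401 to 0.431).

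**Figure D5:**
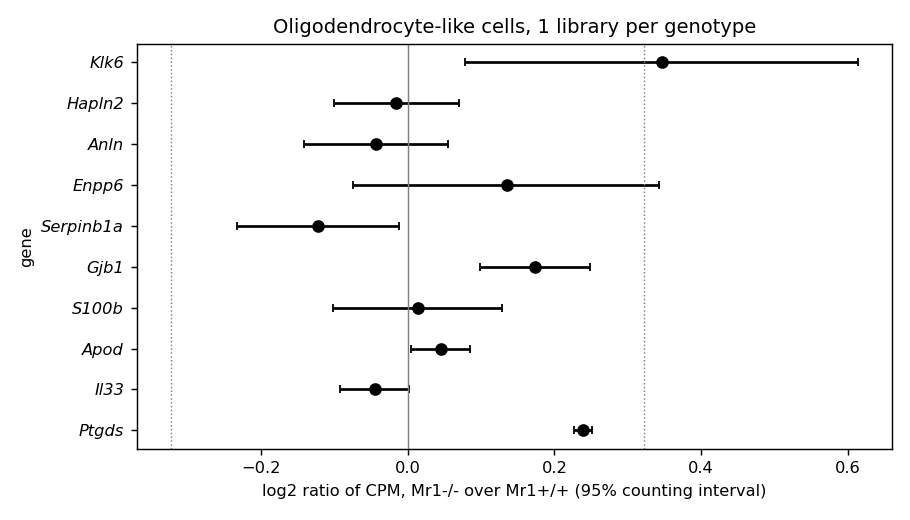
Log2 ratio of CPM, Mr1-/- over Mr1+/+, for each gene in oligodendrocyte-like cells (1 library per genotype), with 95% counting intervals and dotted lines at 0.32 either way. Klk6 lies highest at 0.35, followed by Ptgds at 0.24 and Gjb1 at 0.17.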

How the data were processed

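Raw UMI counts per gene and barcode were deposited by the authors with no normalization. Cell Ranger 3.1.0 is named per the file headers, and Cell Ranger 5.1.0, STAR and mm10 per the submitters' processing notes. The members and gene lists were chosen with earlier results of these data known.

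Cells with at least 300 genes and at most 10% mitochondrial UMIs were kept, and 171 Mr1-/- and 335 Mr1+/+ doublets called by Scrublet (expected rate 0.05) were removed. Clustering used scanpy 1.11.5 and leidenalg 0.10.2 (2000 variable genes without the members, 30 components, 15 neighbours, resolution 1.0, 0.5 for sub-clusters, seed 7) under Python 3.11.15. Clusters were named from at least 3 detected markers and are rebuilt names, not the study's own. CPM was computed from summed counts. Intervals are exact Poisson (sums), Clopper-Pearson (shares), conditional binomial (ratios) and Newcombe (differences of shares). On simulated counts for the oligodendrocyte-like genotype comparison (3063 genes), 95.2% of ratio intervals held the true ratio. Those counts were Poisson sums with no spread between cells or libraries. The simulation therefore checks how the intervals were computed, not whether they suit these libraries.

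All members are named, with, per list, up to 3 genes of most UMIs and the largest ratio each way, and those most correlated with a member. Hopx, Anxa5, Cd9, Opalin and the receptors were chosen from the lists after their values were seen. Alternatives covered scaling, clustering, doublets, mitochondrial limit, thinning, cell weights, shallow sub-clusters, fold and gene filters. Promoter windows are RefSeq's. Some results are not reported here.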

Additional observations from a re-analysis of the deposited data

Results flagged for a closer look

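Ptgds was higher in Mr1-/- cells of some classes and lower in others, with counting intervals that left out 1; the difference between classes was not tested. The ratio Mr1-/- over Mr1+/+ was 1.18 in oligodendrocyte-like, 2.28 in fibroblast-like and 3.0 in neuron-like cells. It was 0.57 in astrocyte-like, 0.618 in ependymal-like, 0.676 in endothelial-like, 0.259 in microglia-like and 0.0115 in neuroblast-like cells. Several rest on few UMIs or few cells. Of 147 Mr1-/- neuron-like UMIs 112 lay in 1 cell, as did 104 of 163 Mr1+/+ microglia-like UMIs and 363 of 368 Mr1+/+ neuroblast-like UMIs. Among the 32 Mr1-/- and 29 Mr1+/+ fibroblast-like cells, 5 cells held 77.2% and 83.1% of the UMIs. Astrocyte-like cells held 50 Mr1-/- and 182 Mr1+/+ UMIs of Ptgds, microglia-like cells 44 and 163, and endothelial-like cells 56 and 80. Oligodendrocyte RNA scaled by Mbp would bring 119.9 and 323 UMIs to astrocyte-like, 363 and 400 to microglia-like and 380 and 447 to endothelial-like cells. The counts lie below these, and the ratios 0.57 and 0.676 are read as background and not as genotype differences. The microglia-like ratio of 0.259 rests largely on the 1 Mr1+/+ cell with 104 of 163 UMIs. It is read neither as background nor as a genotype difference. In ependymal-like cells 32 and 49 UMIs were counted, against 19.98 and 42.4 by the same scaling, and in neuron-like cells 147 and 80, against 123 and 98.0. The scaling was chosen after the values were seen, and its size depends on the transcript used.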

How the results depend on the processing

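No paired analysis was possible because each genotype has 1 library. The log2 ratio of Klk6 in oligodendrocyte-like cells was 0.35 and changed sign to -0.049 with cells thinned to 1500 UMIs; over the other 8 alternatives it lay between 0.27 and 0.36. The count of members past a log2 ratio of 0.32 was 1 (Klk6) with genes of at least 10 UMIs, where 24.0% of genes passed, and 9.36% passed in thinned cells. The difference in the share of cells with Il33, 1.64 points, was -0.174 at Leiden resolution 0.5 and -0.309 without the shallow sub-cluster. That sub-cluster held 56 Mr1-/- and 211 Mr1+/+ cells. Co-detection of Klk6 and Il33 over the product of their shares was 0.928 in Mr1+/+ cells as deposited, and 0 in Mr1-/- and 0.267 in Mr1+/+ cells when at least 2 UMIs were asked for. Leaving out sub-clusters led by astrocyte or endothelial genes, chosen after seeing the data, moved the log2 ratio of Serpinb1a from -0.12 to -0.24, while thinning turned it to 0.03. Thinning also moved S100b from 0.01 to -0.10 and Apod from 0.05 to 0.11. The causes were not tested. The rarity of Klk6 limits what these depths can show.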
